A study of Mus musculus with 23 samples.

Results

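Cathepsins and calpains are among the proteases that muscle and fat use beside the proteasome, and 10 genes of these proteases and their inhibitors were followed here. The set holds the lysosomal proteases cathepsin L (Ctsl), cathepsin B (Ctsb), cathepsin D (Ctsd), cathepsin S (Ctss) and cathepsin K (Ctsk), the calpains Capn1, Capn2 and Capn3, the calpain inhibitor calpastatin (Cast) and the cathepsin inhibitor cystatin C (Cst3). They were taken by gene symbol, and all 10 were found in both count tables of the series, which list 17194 genes between them. The question was whether the mRNA of each gene differed between mice with no tumor, mice with KPC pancreatic tumors and mice with KPC tumors whose Il6 gene had been disrupted.

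Cathepsins are made as inactive precursors and are activated by the acid of the lysosome, where they degrade proteins delivered by autophagy and endocytosis. Calpains are calcium-dependent proteases of the cytosol that cut proteins at a few sites, titin and other parts of the muscle sarcomere among them, and calpastatin blocks the active Capn1 and Capn2 enzymes directly. Ctsl mRNA is known to rise in wasting muscle, whereas Capn3 is a calpain of skeletal muscle whose loss causes a limb-girdle muscular dystrophy.

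All hosts were male C57BL/6J mice operated on at 8 weeks of age, and they kept their own intact Il6 gene. The no tumor group had sham surgery, the KPC group received tumor cells injected into the pancreas, and the KPC IL6KO group received cells of the same origin edited with CRISPR/Cas9 at Il6. The parental line came from a pancreatic tumor of a male mouse of the KPC model. Each of the tumor groups rests on 1 cell clone, and the KPC clone had passed through transfection without guide RNA, so that clone and genotype cannot be told apart. Every mouse was killed at the time when the KPC group was overtly wasted. Quadriceps came from 3 mice with no tumor (numbered 1 to 3), 4 KPC mice and 4 KPC IL6KO mice (1 to 4), and epididymal fat came from 4 other mice of each group (5 to 8). The sample records name different extraction kits for muscle and fat and separate sequencing, while the paper names the miRNeasy kit for tissue RNA. A level in muscle thus cannot be set against a level in fat.

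The libraries held between 19259763 and 74907810 counts in quadriceps and between 26306377 and 56308545 in fat. The lowest count of any of the 10 genes in a library was 111 in quadriceps and 32 in fat, far above the 3 counts taken as the detection floor. Together the 10 genes took 0.225% to 0.251% of the counts in quadriceps with no tumor, 0.337% to 0.531% in KPC and 0.231% to 0.25% in KPC IL6KO. The fat libraries stood apart from one another in a way that the groups describe only in part. Gpx5, a gene of the epididymis, ranged from 21347 to 40388 CPM (counts of a gene per 1000000 counts of its TMM-scaled library) in the 4 KPC pads. It was at 39292 and 34256 CPM in no tumor pads 5 and 7 and at 54957 CPM in KPC IL6KO pad 6, and at most 85.8 CPM in the other 5 pads. The sum of 13 epididymis markers was 44335 to 73142 CPM in KPC pads. It was 103617 and 82280 CPM in no tumor pads 5 and 7, and 102776 CPM in KPC IL6KO pad 6. In no tumor pads 6 and 8 it was 13595 and 19046.5 CPM, and in KPC IL6KO pads 5, 7 and 8 it was 775, 15830 and 10316 CPM. Pads low in Gpx5 thus still held other epididymis markers. Gpx5 was high in all 4 KPC pads but in KPC IL6KO only in pad 6. Group and epididymis content thus cannot be fully told apart in fat, least of all between the tumor groups. The markers of the labelled tissues were present in every library, with 11 of 11 myofiber markers listed in quadriceps and 10 of 10 adipocyte markers listed in fat.

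Ctsl and Ctsd rose in the quadriceps of KPC tumor mice, together with the calpain inhibitor Cast, while Capn1, Capn3 and Cst3 fell. Of the 10 genes, 6 were called in KPC against no tumor, 3 higher and 3 lower, where a call needed a false discovery rate (FDR) of at most 0.05 and a change of at least 1.5-fold. Across all 12831 genes tested in quadriceps 55.7% were called in this comparison, 26.7% higher and 29% lower, so that the share of called genes in the set was near that of the whole table. The levels of KPC and no tumor libraries did not overlap for 8 of the 10 genes, against 65.3% of all genes. The median size of the log2 fold change was 0.73 over the 10 genes and 0.75 over all genes. These values use TMM scaling, under which the median log2 fold change of all genes was -0.03. With upper quartile scaling that median was -0.36, all genes split into 17.2% higher and 39.4% lower, and the set into 3 higher and 5 lower, as Ctsb and Ctsk were then called lower beside the same 6 genes.

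Ctsl, a cysteine endopeptidase of the lysosome, was at 111, 107 and 120.1 CPM in the 3 libraries with no tumor. It was at 557, 453, 1382 and 430.1 CPM in KPC libraries 1 to 4. Every KPC library was thus above every library with no tumor, and KPC 3 stood far above the others. The fitted change was 6.26-fold (log2 fold change 2.65 ± 0.38 SE, 95% interval 1.81 to 3.48, edgeR quasi-likelihood test, FDR = 9.93e-05). Without KPC 3 the log2 fold change was 2.09, and the call remained. Ctsd, the aspartic protease of the lysosome, was at 743, 751 and 759 CPM with no tumor and at 2353, 1919, 3459 and 1915 CPM in KPC. The groups were apart by more than their own spread, and KPC 3 was again the highest. Its change was 3.21-fold (log2 fold change 1.68 ± 0.20 SE, FDR = 2.38e-05).

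The other 3 cathepsins did not share this rise. Ctsb, a cysteine protease that also trims peptides from their ends, was at 401, 435 and 379 CPM with no tumor and at 337, 342, 339 and 325 CPM in KPC. The groups did not overlap, but the difference stayed under the 1.5-fold bound (log2 fold change -0.27 ± 0.09 SE, FDR = 0.0168). Ctss, a protease of antigen-presenting cells, was low, at 4.35, 3.98 and 6.86 CPM with no tumor. In KPC it was at 11.9, 3.87, 3.75 and 2.43 CPM, so that KPC 1 lay above and the other KPC libraries below all libraries with no tumor. The log2 fold change was 0.14 (95% interval -0.89 to 1.16, FDR = 0.807), and it was -0.58 without KPC 1. Ctsk, the collagen-degrading cathepsin of osteoclasts and fibroblasts, was at 5.40, 7.21 and 7.17 CPM with no tumor and at 8.52, 2.79, 3.94 and 2.09 CPM in KPC. The log2 fold change of Ctsk was -0.60 (95% interval -1.45 to 0.25, FDR = 0.188). Without KPC 1, whose level was above every library with no tumor, it became -1.16 and was called (FDR = 0.00209).

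The windows before the start sites of Ctsl and Ctsd are shown here because these cathepsins rose together and because both windows hold the 6 letters CACGTG, the E-box bound by TFEB and its relatives, which control lysosomal genes. The 250 bases before each RefSeq start site (GRCm38.p6) were searched on both strands for CACGTG, for the CLEAR element (CACGTG with GT before it and AC after it, so that each of its matches is also an E-box), and for 4 other motifs. These were TGTTTAC (forkhead), TTCNNNGAA (STAT), AGAACA and TGTTCT with 3 bases between them (glucocorticoid receptor), and CTA and TAG with 4 bases between them (MEF2). RefSeq start sites were matched for 9 of the 10 genes. The capitals mark the E-box in these stretches, given 5′ to 3′ on the minus strand, on which both genes lie.
Ctsd, chr7:142388048-142388077, E-box 245 bases before the start: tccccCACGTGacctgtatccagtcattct
Ctsd, chr7:142387908-142387937, E-box 98 bases before the start: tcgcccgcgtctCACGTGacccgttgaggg
Ctsl, chr13:64370739-64370768, E-box 236 bases before the start: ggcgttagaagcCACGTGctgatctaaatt
CACGTG was present in 6.02% of all 32851 windows of this length, and the CLEAR element, present in 0.24% of them, was in none of the members' windows. The forkhead motif was in 3.17% of windows and the glucocorticoid receptor motif in 0.00913%, and neither was in a window of the set. The windows of Ctss, Ctsk, Capn1, Capn2 and Cst3 held none of the 6 motifs. A match is a description of the letters and says nothing on binding.

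Of the 3 calpains, Capn1 and Capn3 fell in KPC and Capn2 was not called. Capn1, the calpain active at micromolar calcium, was at 121, 113 and 133 CPM with no tumor and at 87.4, 81.3, 40.2 and 65.9 CPM in KPC. All KPC libraries were below all libraries with no tumor, with KPC 3 the lowest, and Capn1 fell 1.78-fold (log2 fold change -0.83 ± 0.21 SE, FDR = 0.0043). Capn3, the muscle calpain anchored on titin, was at 184, 167 and 194 CPM with no tumor and at 103, 119, 56.0 and 91.7 CPM in KPC. It fell 1.97-fold (log2 fold change -0.98 ± 0.20 SE, FDR = 0.000963), again with KPC 3 lowest. Capn2, the calpain active at millimolar calcium, was higher in KPC, with 67.2, 75.7 and 77.7 CPM against 107, 84.0, 95.2 and 106 CPM. That difference passed the FDR but was under 1.5-fold (log2 fold change 0.42 ± 0.11 SE, FDR = 0.00475). With upper quartile scaling the log2 fold change of Capn2 was 0.09 and did not pass the FDR (FDR = 0.429).

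Both inhibitors passed the test, in opposite directions. Cast was at 78.5, 83.7 and 91.8 CPM with no tumor and at 204, 156, 151 and 211 CPM in KPC. No library overlapped, and Cast rose 2.13-fold (log2 fold change 1.09 ± 0.13 SE, FDR = 3.03e-05). Cst3, the secreted inhibitor of cysteine cathepsins, was at 529, 496 and 453 CPM with no tumor and at 332, 354, 253 and 331 CPM in KPC. It fell 1.55-fold (log2 fold change -0.63 ± 0.12 SE, FDR = 0.000785), close to the 1.5-fold bound. The log2 fold change of Cst3 was -0.55 without no tumor 1 and -0.54 without KPC 3, both of which passed the FDR and missed the bound.

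**Figure D1:**
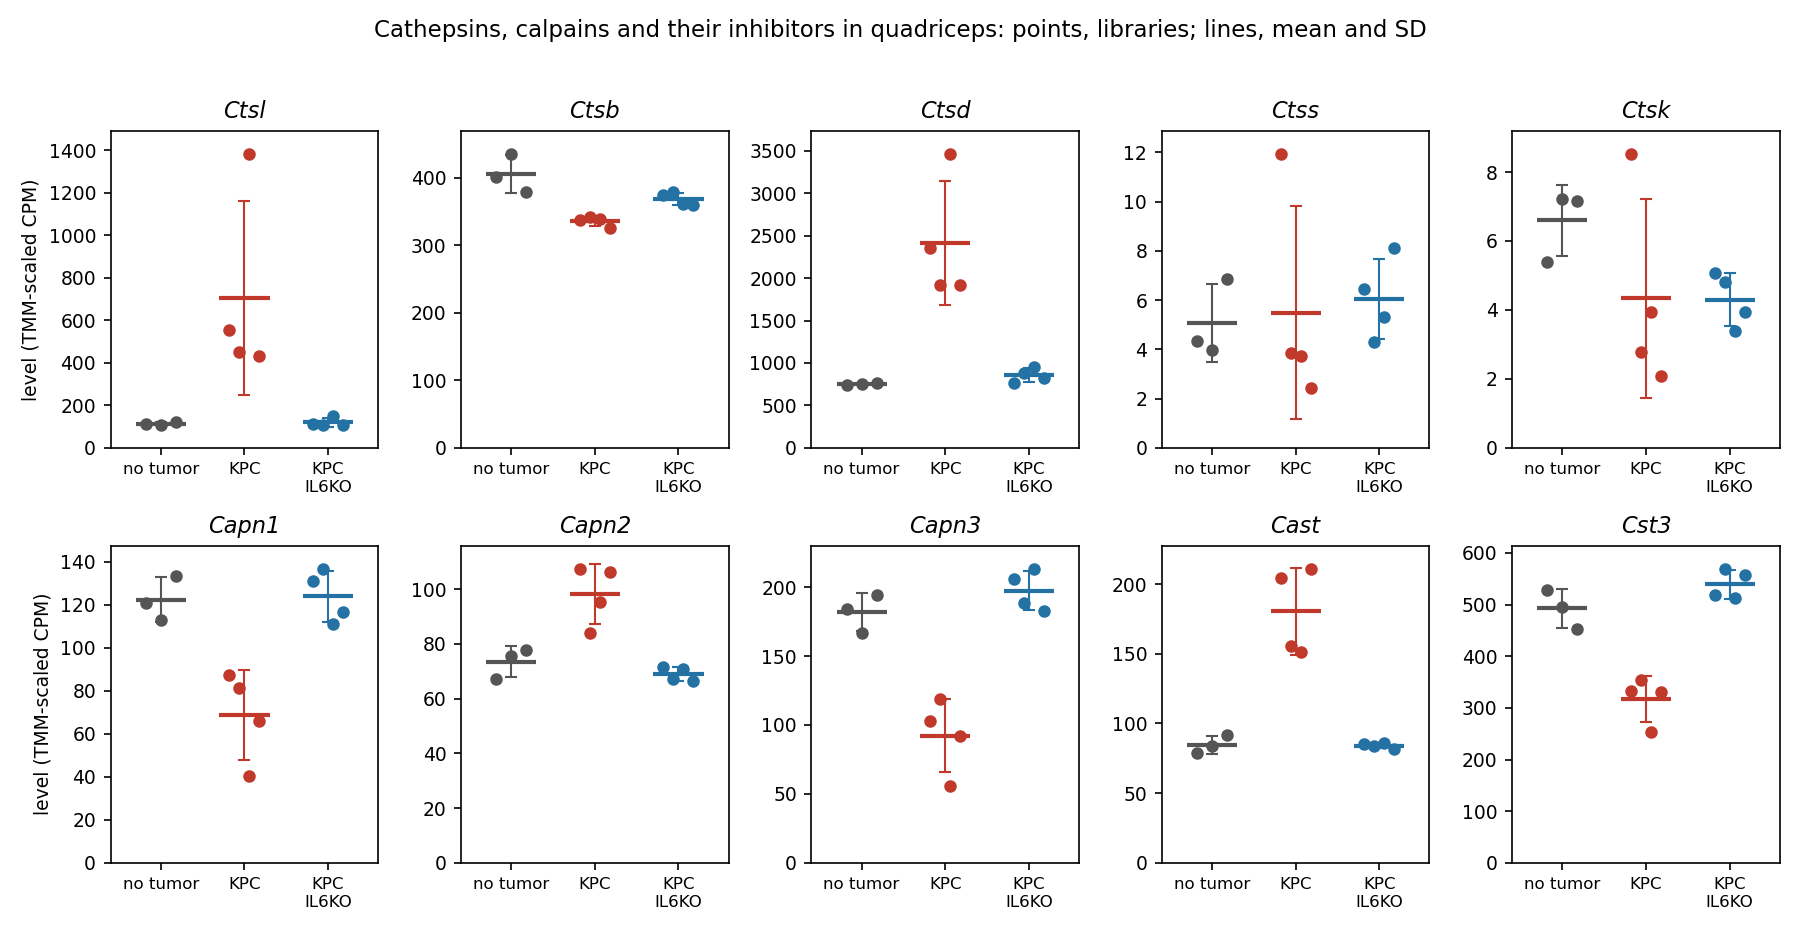
Levels of the 10 genes in quadriceps, in CPM on linear axes that start at 0, with a point for each library and lines for the group mean and SD (3 no tumor, 4 KPC and 4 KPC IL6KO mice). Ctsl, Ctsd and Cast lie higher and Capn1, Capn3 and Cst3 lower in every KPC library than in any other library, and none of the 10 genes was called in KPC IL6KO against no tumor.

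Within the set, Cast was the inhibitor and Capn3 the calpain with the largest change in quadriceps of KPC against no tumor. Stretches before their start sites are shown, the only ones in the set with a match besides those of Ctsl and Ctsd. Their capitals mark the STAT motif of Cast and the MEF2 motif of Capn3, the latter bound by a regulator of muscle genes, at the first of 4 RefSeq start sites of Cast and the first of 2 of Capn3.
Cast, chr13:74808912-74808941, minus strand, 171 bases before the start: attcttcaaaTTCTTAGAAaaaggggtcta
Capn3, chr2:120463511-120463540, plus strand, 72 bases before the start: cacttcatgtCTATTTTTAGttttcctggc
The STAT letters were present in 7.02% and the MEF2 letters in 3.2% of all windows. The windows at the other start sites of Cast and Capn3 held none of the motifs, and a match again says nothing on binding. In the gene annotation of the same build (GENCODE M21, GRCm38), Cast lies at chr13:74692368-74808810 and Capn3 at chr2:120456019-120504913. Ctsl lies at chr13:64359337-64370890 and Ctsd at chr7:142375911-142388038. The stretches of Ctsl and Capn3 and that of Ctsd 98 bases before the start thus lie inside the annotated genes, since the RefSeq start sites used here lie inside them.

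In quadriceps of KPC IL6KO mice none of the 10 genes was called against no tumor (edgeR quasi-likelihood test, 0% of all genes called), and none had an unadjusted p under 0.05, as 6.91% of all genes did. The likelihood ratio test called 95 genes (0.74%) and DESeq2 96 genes (0.781%), none of them in the set. Ctsl was at 110.2, 107, 152 and 109 CPM in KPC IL6KO, a log2 fold change of 0.09 with a 95% interval of -0.68 to 0.85. The upper end of that interval lies under the lower end of the KPC interval for Ctsl. Ctsd was at 766, 886, 955 and 825 CPM, above each library with no tumor, with a log2 fold change of 0.19 (95% interval -0.22 to 0.61). Cast was at 85.0, 83.7, 86.0 and 81.7 CPM, a log2 fold change of -0.01 (95% interval -0.29 to 0.27). The 4 Cast levels thus lay within the range of the libraries with no tumor. For Capn1, Capn3 and Cst3 the log2 fold changes were 0.02, 0.12 and 0.13, and their 95% intervals ran from -0.45 to 0.48, from -0.31 to 0.55 and from -0.14 to 0.40. Levels did not overlap for Ctsb, Ctsd and Ctsk, 3 of the 10 genes, against 15.5% of all genes.

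The direct comparison asked which genes differed between muscles of mice with KPC and with KPC IL6KO tumors. Here 6 of the 10 genes were called, 3 higher and 3 lower, against 53.6% of all genes (26.4% higher and 27.3% lower). With upper quartile scaling all genes split into 17% higher and 38.1% lower, and the set again into 3 higher and 3 lower. Levels of KPC and KPC IL6KO did not overlap for 8 of the 10 genes, against 62% of all genes. Ctsl was 5.90-fold higher in KPC (log2 fold change 2.56 ± 0.34 SE, FDR = 5.22e-05) and Ctsd 2.81-fold higher (1.49 ± 0.18 SE, FDR = 2.44e-05). Cast was 2.15-fold higher (log2 fold change 1.10 ± 0.12 SE, FDR = 1.38e-05). Capn3 was 2.14-fold lower, Capn1 1.80-fold lower and Cst3 1.70-fold lower, with FDR of 0.000279, 0.00247 and 0.000128. Capn2 passed the FDR at a log2 fold change of 0.51, which is under 1.5-fold (FDR = 0.000745). Ctsb, Ctss and Ctsk had log2 fold changes of -0.13, -0.13 and 0.01 (FDR of 0.165, 0.794 and 0.974). Without KPC 1 Ctss was at -0.85 and was called (FDR = 0.0177), and Ctsk was at -0.55. Both KPC comparisons use the same 4 KPC libraries, so they are not independent of each other.

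**Figure D2:**
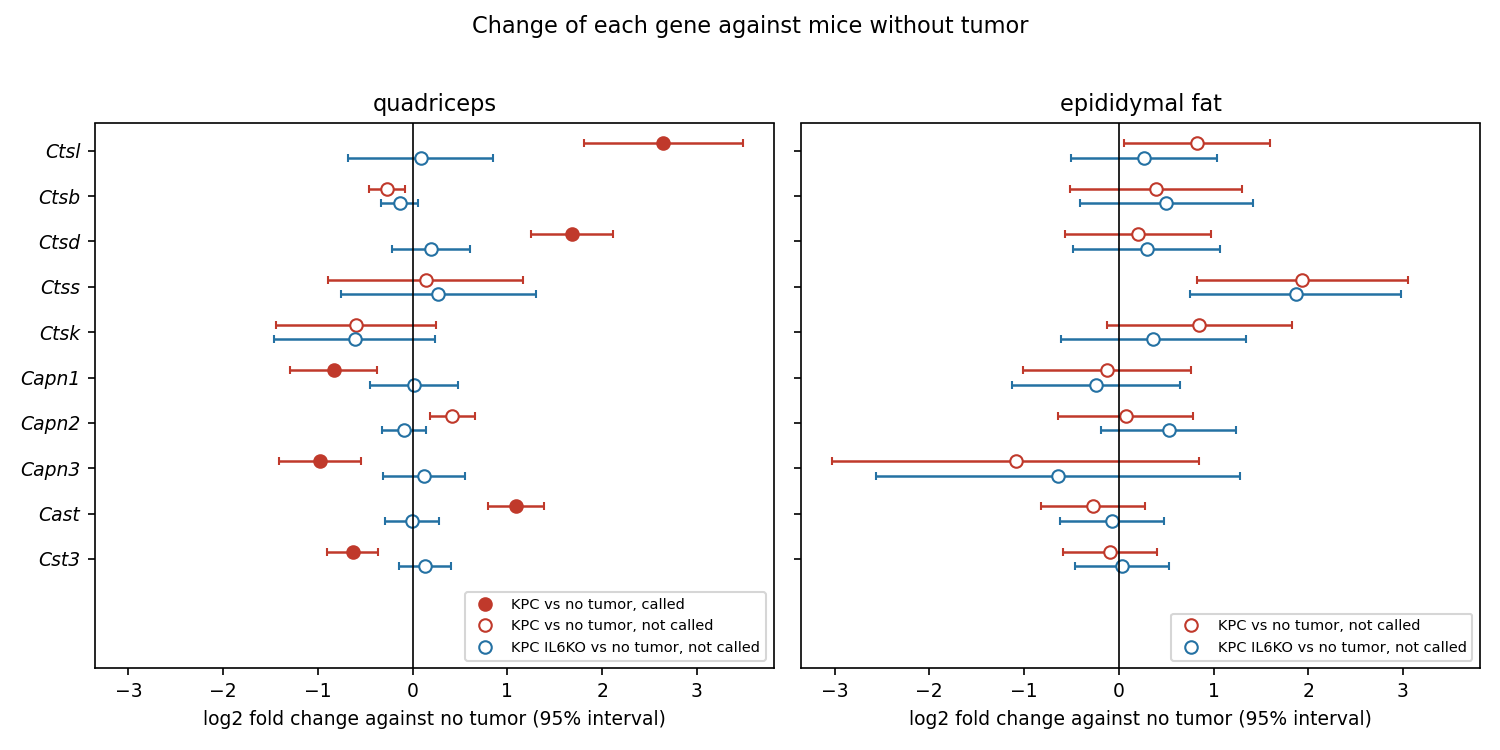
Log2 fold change of each gene against mice with no tumor, with the 95% interval, in quadriceps (left) and epididymal fat (right), where filled points were called. In quadriceps 6 genes were called in KPC and none in KPC IL6KO, and in fat the intervals of Ctss in both tumor groups and of Ctsl in KPC lie above 0 without a call.

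Set per kilobase of exon, the order of the genes in muscle differed between no tumor and KPC. With no tumor the means were 389 CPM per kb for Cst3, 319 for Ctsd, 66.9 for Ctsb, 36.6 for Capn1, 36.2 for Capn3, 17.4 for Ctsl, 11.6 for Capn2, 7.38 for Cast, 4.36 for Ctsk and 3.73 for Ctss. The neighbours Capn1 and Capn3, and Ctsk and Ctss, overlapped in their ranges, and the other neighbours did not. In KPC Ctsd led with 1026 CPM per kb, followed by Cst3 with 251 and Ctsl with 109, whose ranges overlapped, and by Ctsb with 55.5. The order in KPC IL6KO was that of no tumor, but for Capn1 with Capn3 and Ctsk with Ctss, neighbours that changed places and overlapped in range. The ratio of Ctsl to Ctsb per kb was 0.229 to 0.296 with no tumor, 1.23 to 3.80 in KPC and 0.264 to 0.392 in KPC IL6KO. The ratio of Cast to the sum of Capn1 and Capn2 per kb was 0.146 to 0.16 with no tumor, 0.362 to 0.504 in KPC and 0.142 to 0.169 in KPC IL6KO. Ctsl, Ctsb, Ctss and Ctsk summed per kb came to 0.216 to 0.254 of Cst3 with no tumor, 0.467 to 1.38 in KPC and 0.190 to 0.221 in KPC IL6KO. On all 3 ratios the KPC libraries lay above every other quadriceps library. The lengths are unions of all annotated exons, at 6489 bases for Ctsl, 6051 for Ctsb, 11470 for Cast and 1266 for Cst3. A gene whose main transcript is shorter than its union is set too low per kb. The order of the genes and the absolute size of the ratios thus depend on the annotation. These ratios are of mRNA and do not measure protein or protease activity.

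Markers of other cell types also moved between the muscle groups, and in bulk tissue fewer cells of a type and less RNA per cell cannot be told apart. The fibroblast list fell in 10 of 10 genes in KPC, and its summed level was 1387 to 1529 CPM with no tumor, 184 to 315 CPM in KPC tumor mice and 735 to 1153 CPM where the tumor was KPC IL6KO. All 4 neutrophil markers in the table rose in KPC, from a sum of 0.359 to 0.779 CPM to one of 4.50 to 21.8 CPM, with 2.14 to 4.13 CPM in KPC IL6KO. In KPC IL6KO all 4 had higher levels than with no tumor (median log2 fold change 2.11), with 3 at an unadjusted p under 0.05. The quasi-likelihood test called none of these 4 in KPC IL6KO and the likelihood ratio test 2. The macrophage sum did not separate the groups, at 129 to 187 CPM with no tumor, 59.3 to 237.6 CPM under KPC tumors and 134 to 208 CPM under KPC IL6KO tumors. Of its 13 genes 2 rose and 2 fell (1 and 4 with upper quartile scaling), among them Cd68, which also marks lysosomes, at a log2 fold change of 3.22, and Adgre1 at -1.54. Ctss was 2.24% to 5.02% of the macrophage sum in KPC and 2.93% to 3.67% with no tumor. Among the myofiber markers 3 of 11 fell, and Ckm, the muscle creatine kinase, was not called. The adipocyte sum was 561 to 2746 CPM with no tumor, 159 to 1754 CPM in KPC muscles and 217 to 659 CPM in KPC IL6KO muscles. Of the 10 adipocyte markers 2 fell in KPC (4 with upper quartile scaling). All 10 had lower levels in KPC than with no tumor (median log2 fold change -1.08) and higher levels than in KPC IL6KO (median 0.85). In KPC IL6KO all 10 had lower levels than with no tumor, with a median log2 fold change of -2.01 and 5 at an unadjusted p under 0.05, and the quasi-likelihood test called none of them and the likelihood ratio test 1. Of the 7 endothelial markers 1 rose and 2 fell in KPC, and the 1 lymphocyte marker in the table fell. Over all genes 26.7% were called higher and 29% lower in KPC against no tumor. The ratio of Capn3 to Ckm in CPM was 0.00596 to 0.00682 with no tumor and 0.00235 to 0.00409 in KPC, without overlap. The part of these markers in the other results was not tested.

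Other genes of the same pathways were listed by name and counted in KPC against no tumor, in which 55.7% of all genes were called. Of the other cathepsins 1 of 6 rose and 3 fell. Ctsz, a carboxypeptidase, rose from 31.6 ± 2.2 to 78.7 ± 32.7 CPM (means and SD over 3 and 4 mice), with a log2 fold change of 1.32 (FDR = 0.000948). Ctsh, an aminopeptidase, fell from 10.1 ± 0.4 to 4.24 ± 2.33 CPM (log2 fold change -1.25, FDR = 0.0041). Ctsa, a carboxypeptidase with the highest level of the list, was at 83.3 and 82.4 CPM and was not called. Of 7 other calpains and small subunits 3 rose and 2 fell (2 and 2 with upper quartile scaling). Capns1, the regulatory subunit that Capn1 and Capn2 share, rose from 149 ± 5 to 303 ± 52 CPM (log2 fold change 1.02, FDR = 3.99e-05). The largest changes in that list were those of Capn15, at 1.47, and of Capn6, a calpain that lacks the catalytic cysteine, at -2.94. Both of the other cystatins in the table rose (1 of 2 with upper quartile scaling), Cstb (cystatin B, an inhibitor inside cells) at a log2 fold change of 0.97 and Cst6 at 0.90, whereas Cst3 fell.

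Calls among the other lysosomal genes went in both directions as well. Among 33 other lysosomal hydrolases 6 rose and 11 fell (4 and 20 with upper quartile scaling). Gaa, which breaks down glycogen in the lysosome, rose from 360.3 ± 55.6 to 1657 ± 516 CPM (log2 fold change 2.20, FDR = 1.21e-05), and Arsb, a sulfatase, fell from 9.19 to 2.26 CPM (log2 fold change -2.02, FDR = 4.04e-05). Psap, the precursor of the saposins and the most abundant of the list, had a log2 fold change of 0.37 and was not called. Of 16 genes of the lysosomal membrane and sorting 7 rose and 3 fell (4 and 4 with upper quartile scaling), with Npc1, a cholesterol exporter, at 3.09 and Sort1, a sorting receptor, at -1.23. Of 18 subunits of the V-ATPase, the pump that acidifies the lysosome, 8 rose and none fell (5 and 1 with upper quartile scaling), with Atp6v1h going from 12.8 ± 1.5 to 112 ± 26 CPM (log2 fold change 3.13, FDR = 9.11e-07). Tfeb, the transcription factor that controls many lysosomal genes, rose from 87.0 ± 10.5 to 215 ± 45 CPM (log2 fold change 1.31, FDR = 4.08e-05), as did its relative Mitf, 2 of the 3 factors in the table. Of 10 known calpain substrates 3 rose and 1 fell (2 and 2 with upper quartile scaling), with Flnc (filamin C, an actin crosslinker of the sarcomere) at a log2 fold change of 2.85 and Vim (vimentin) at -1.72. Ttn (titin) was at 9223 and 7262 CPM and was not called. In KPC IL6KO against no tumor no gene of these lists was called (edgeR quasi-likelihood test), and neither did the likelihood ratio test call one. An unadjusted p under 0.05 (quasi-likelihood test) was found for 8 of these genes and for 6.91% of all genes. The 8 were 3 of 33 hydrolases, 3 of 10 calpain substrates, 1 of 16 membrane and sorting genes and 1 of 2 cystatins.

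**Figure D3:**
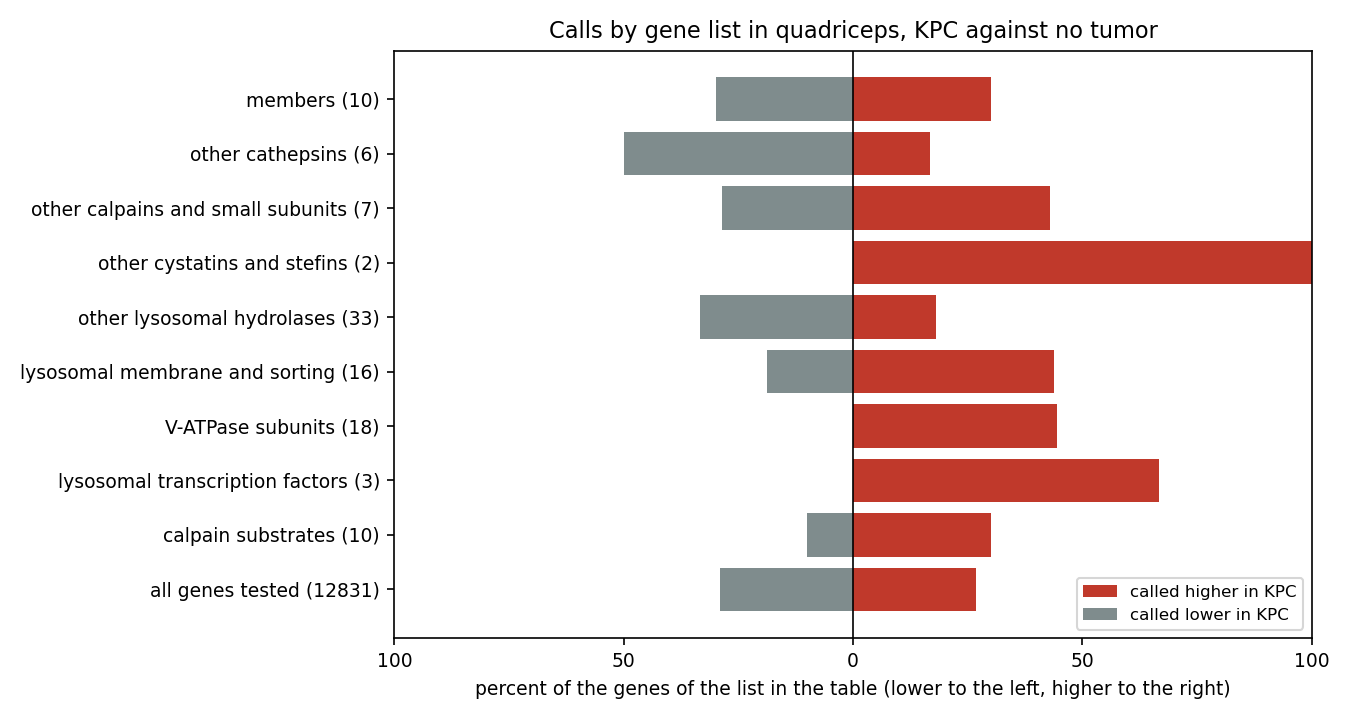
Percent of the genes of each list called higher (right) or lower (left) in quadriceps of KPC against no tumor, with the number of genes in the table in brackets and all genes tested as the lowest bar. The 18 V-ATPase subunits hold calls to the right alone, while the 33 hydrolases have more calls to the left.

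In epididymal fat no gene of the set was called in any comparison by the edgeR quasi-likelihood test, which called 0% of the 16962 genes there. At an unadjusted p under 0.05 there were 2 of the 10 genes in KPC against no tumor (12.2% of all genes), 1 in KPC IL6KO against no tumor (9.34%) and none in KPC against KPC IL6KO (6.26%). The FDR of the 10 genes ran from 0.228 to 0.944, from 0.394 to 0.96 and from 0.916 to 0.991 in the 3 comparisons. Levels of KPC and no tumor did not overlap for 2 of the 10 genes, Ctss and Ctsl, against 10.9% of all genes.

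Ctss had the largest fold change of the 10 genes in fat, in both tumor groups. It was at 76.5, 66.7, 52.0 and 39.5 CPM in no tumor pads 5 to 8, and at 236, 282, 187 and 194 CPM in KPC pads. In KPC IL6KO pads 5 to 8 it was at 214, 73.04, 100.3 and 470.4 CPM. Every KPC pad was above every pad with no tumor, and 3 of the 4 KPC IL6KO pads were, pad 6 lying within the no tumor range. The fitted change was 3.83-fold in KPC (log2 fold change 1.94 ± 0.51 SE, 95% interval 0.82 to 3.05, FDR = 0.228) and 3.65-fold in KPC IL6KO (1.87 ± 0.51 SE, FDR = 0.394). The likelihood ratio test called Ctss in both (FDR = 0.0202 and 0.0387), among 2.43% and 1.23% of all genes, and DESeq2 did so too (FDR = 0.00801 and 0.0214), among 3.46% and 1.73%. Between the tumor groups the log2 fold change was 0.07, with a 95% interval of -1.01 to 1.14.

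The call on Ctss in fat rested on the test and on which pads were used. Among the pads with Gpx5 above 1000 CPM, no tumor 5 and 7 and all 4 KPC pads, the log2 fold change was 1.90 and was called (FDR = 0.0256), a choice made after the data were seen. With the epididymal markers as a covariate it was 2.09 (FDR = 0.0519), and with KPC and no tumor libraries alone in the fit it was 1.98 and was called (FDR = 0.0258). For KPC IL6KO the low-Gpx5 pads gave 2.26 (FDR = 0.709) and the covariate 1.52 (FDR = 0.609). Without KPC IL6KO 8, the highest library, that log2 fold change was 1.14.

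Macrophage markers also had higher levels in the tumor groups in fat. Their sum was 355 to 1267 CPM with no tumor, 1527 to 2349 CPM in KPC pads and 570.5 to 4035 CPM in KPC IL6KO pads. Of the 14 markers 14 were higher in each tumor group, with 10 and 12 at an unadjusted p under 0.05 and median log2 fold changes of 1.5 and 1.57, and none was called by the quasi-likelihood test. The likelihood ratio test called 4 of the 14 higher in each tumor group. None of the defining markers Adgre1, Cd68 and Csf1r was at the floor in any pad. Ctss came to 5.27% to 14.6% of the macrophage sum with no tumor, 10.1% to 12.6% in KPC and 5.98% to 12.8% in KPC IL6KO. With no tumor the share was 14.6% in each of the high-Gpx5 pads 5 and 7, above every KPC pad, and 5.27% and 5.88% in pads 6 and 8, below every KPC pad. Of the 7 neutrophil markers listed in fat, 6 had higher levels in each tumor group, with median log2 fold changes of 3.05 in KPC and 2.46 in KPC IL6KO, and the likelihood ratio test called 4 and 3 of them. Their sum, in contrast, was 7.69 to 766 CPM with no tumor, 37.7 to 161 CPM in KPC pads and 4.49 to 397 CPM in KPC IL6KO pads, so that the no tumor range covered the KPC range. A sum weights each marker by its level, and Ltf was the most abundant of the 7. The part of Ltf in the sum was not tested. The 10 adipocyte markers were all lower in KPC, with a median log2 fold change of -1.43 and 4 at an unadjusted p under 0.05, and the quasi-likelihood test called none of them and the likelihood ratio test 1. Of the 10 fibroblast markers 6 were higher in KPC and 7 in KPC IL6KO, with 4 and 1 at an unadjusted p under 0.05, and the likelihood ratio test called 2 lower in KPC. Their sum was 1149 to 3863 CPM with no tumor, 2881 to 5899 CPM in KPC pads and 1647 to 5477 CPM in KPC IL6KO pads. Mesothelial markers were higher in 5 of 6 genes in each tumor group, with median log2 fold changes of 1.02 and 0.93, and the likelihood ratio test called 1 of them in KPC IL6KO. Endothelial markers were higher in 6 and 7 of 7 genes (medians 0.51 and 0.46) and lymphocyte markers in 1 and 2 of 8 (medians -1.04 and -0.21), without a call by either test. The part of these cell types in the Ctss values was not tested.

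**Figure D4:**
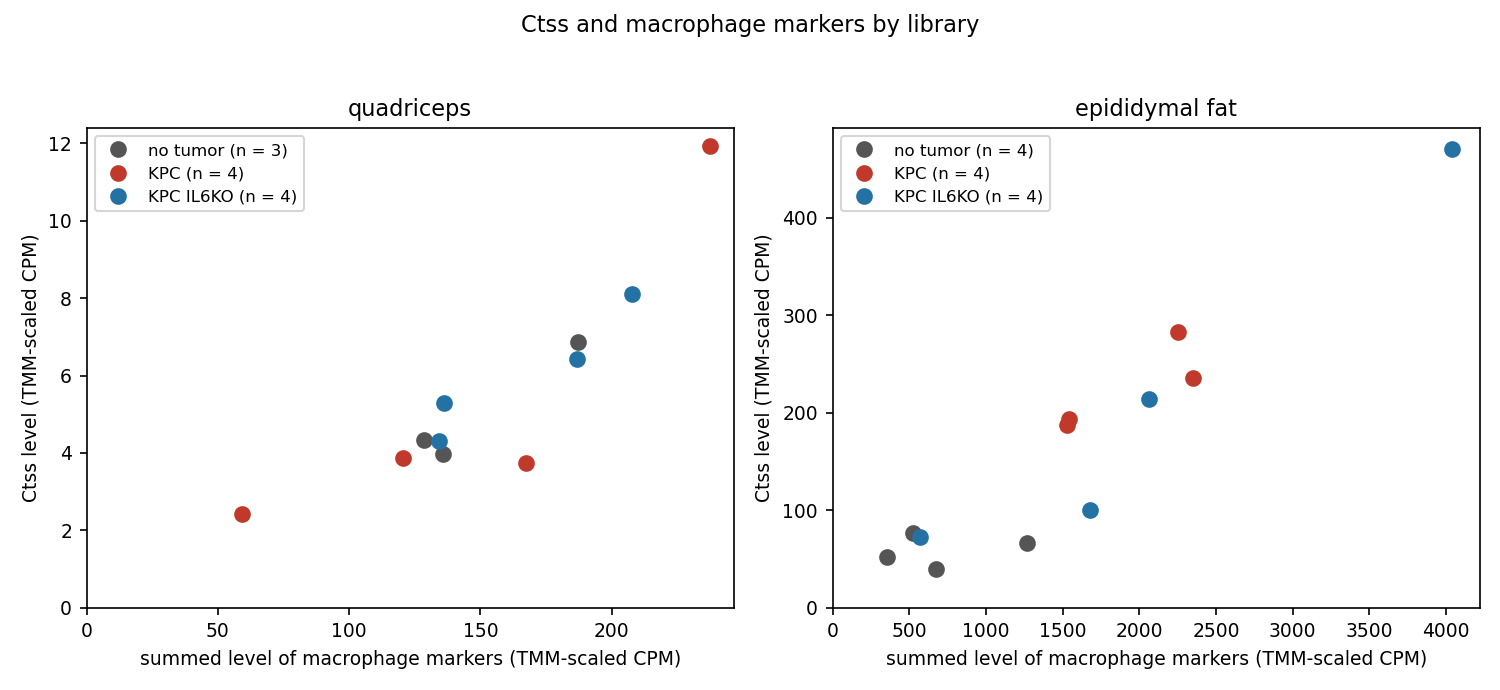
Level of Ctss against the summed level of the macrophage markers, both in CPM on linear axes, with a point for each library in quadriceps (left) and epididymal fat (right). In fat the 4 KPC pads lie at 1527 to 2349 CPM on the x axis and the 4 pads with no tumor at 355 to 1267 CPM, while KPC IL6KO spans both, from 570.5 to 4035 CPM.

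The other cathepsins in fat were not called, and apart from Ctsl in KPC their ranges overlapped between groups. Ctsl was at 520.4, 493, 479 and 359.5 CPM with no tumor, at 1329, 820.4, 532 and 604 CPM in KPC pads and at 335, 812, 462 and 617 CPM in KPC IL6KO pads. The KPC pads were all above the pads with no tumor, the nearest of them by little, and the log2 fold change was 0.83 ± 0.35 SE (FDR = 0.383). Ctsb ran from 478 to 1676 CPM with no tumor, which covered the KPC range of 919.5 to 1489.7 CPM and the KPC IL6KO range of 775 to 1649 CPM. Ctsd ran from 742 to 1452 CPM, from 916 to 1547 CPM and from 897 to 1988 CPM. Ctsk was low, at 7.74 to 20.8 CPM with no tumor, 15.3 to 46.3 CPM in KPC pads and 8.71 to 21.2 CPM in KPC IL6KO pads. The log2 fold changes of Ctsb, Ctsd and Ctsk in KPC were 0.40, 0.20 and 0.85, with FDR of 0.712, 0.831 and 0.487. These values moved with single pads, without a call. Without KPC 5 the log2 fold change of Ctsl was 0.49, that of Ctsk 0.32 and that of Ctsd 0.025. Without no tumor 6 it was 0.92 for Ctsb and 0.44 for Ctsd, and Ctsb was at 0.19 without no tumor 7. Among the high-Gpx5 pads, chosen after the data were seen, Ctsb, Ctsd and Ctsk were at 1.11, 0.51 and 1.53, again without a call.

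The calpains and the inhibitors showed no call in fat and wide intervals. Capn1 was at 217, 68.6, 155 and 72.4 CPM with no tumor, where the high values were those of the pads with high Gpx5. Its levels in KPC, 100.1 to 140.0 CPM, and in KPC IL6KO, 63.0 to 177 CPM, lay inside or near that range. Capn3 was at 22.1, 3.91, 29.8 and 33.1 CPM with no tumor, at 5.55 to 15.4 CPM in KPC pads and at 0.785, 7.58, 35.7 and 13.1 CPM in KPC IL6KO. Its log2 fold change in KPC was -1.09 with a 95% interval of -3.03 to 0.85, the widest of the set. Myofiber markers were present in some pads, with Ckm at 0.491 to 44.0 CPM with no tumor, 0.0650 to 0.539 CPM in KPC pads and 15.5 to 269.8 CPM in KPC IL6KO pads, and the sum of the 11 markers was 12.7 to 371 CPM, 10.5 to 11.5 CPM and 127 to 3507 CPM in the same order. All 11 had lower levels in KPC than in KPC IL6KO, with a median log2 fold change of -7.98 and 11 at an unadjusted p under 0.05, and the quasi-likelihood test called none of them and the likelihood ratio test 10. Against no tumor the median was -4.22 in KPC, with 1 of 11 higher, and 3.76 in KPC IL6KO, with 11 of 11 higher. Of the 11 markers, 6 in KPC and 7 in KPC IL6KO had an unadjusted p under 0.05 there. The likelihood ratio test called 3 lower in KPC and none in KPC IL6KO. The part of muscle in the Capn3 values was not tested. Capn2, Cast and Cst3 had log2 fold changes in KPC of 0.07, -0.27 and -0.09 (95% intervals -0.64 to 0.78, -0.82 to 0.28 and -0.59 to 0.40). In KPC IL6KO they were 0.53, -0.07 and 0.04.

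**Figure D5:**
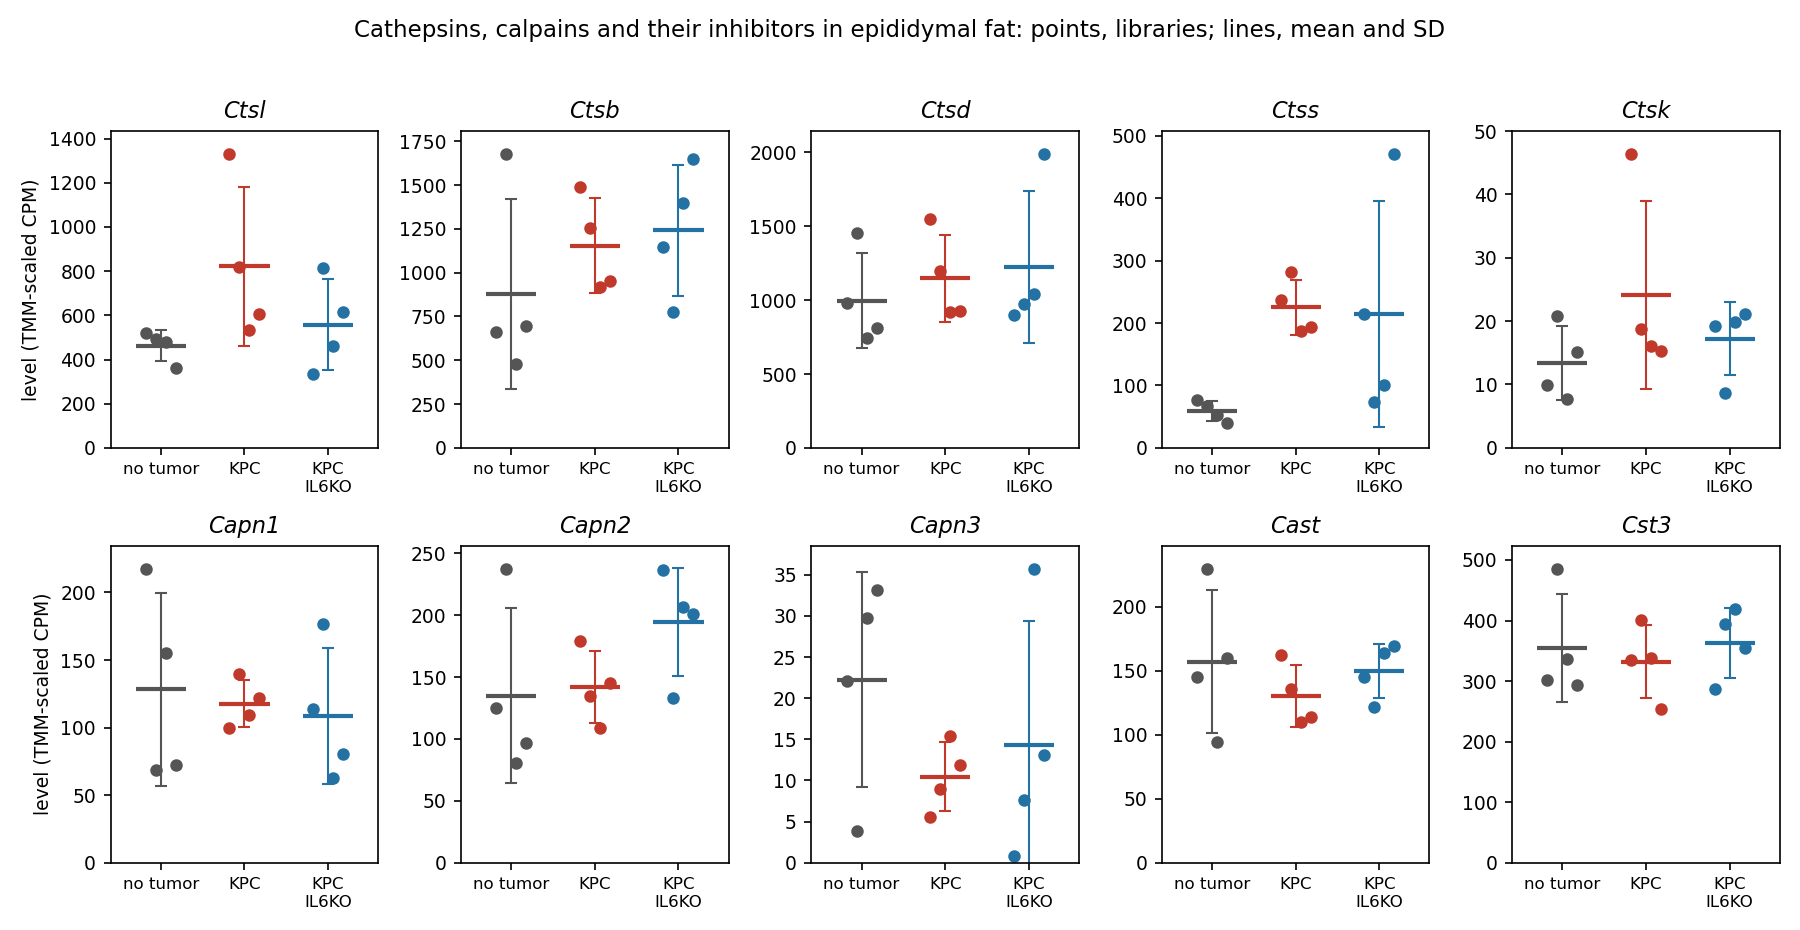
Levels of the 10 genes in epididymal fat, in CPM on linear axes that start at 0, with a point for each pad and lines for the group mean and SD (4 mice in each group). Ctss in KPC, at 187 to 282 CPM, lies above the pads with no tumor, at 39.5 to 76.5 CPM, while most other genes overlap in all groups.

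In fat no gene of the 8 lists of other pathway genes was called by the quasi-likelihood test in any of the 3 comparisons. The likelihood ratio test called 2.43% of all genes in KPC against no tumor. Among them were Lgmn (1 of 33 hydrolases) and Tfec (1 of 4 lysosomal transcription factors). In KPC IL6KO against no tumor it called 1.23% of all genes, with Tcirg1 (1 of 19 V-ATPase subunits) and Tfec again. Between the tumor groups it called 66 of 16962 genes, with the muscle genes Ttn and Neb (2 of 10 calpain substrates), both lower in KPC. No other gene of the 8 lists was called. Lgmn (legumain), the protease that processes several cathepsins, averaged 118 ± 6 CPM with no tumor, 344 ± 86 CPM in KPC pads and 225 ± 100 CPM in KPC IL6KO pads (mean ± SD of 4 pads each). Its log2 fold change in KPC was 1.55 (FDR = 0.168). Tfec, the member of the Tfeb family found in macrophages, went from 0.781 ± 0.214 to 5.77 ± 1.82 CPM in KPC, a log2 fold change of 2.89 (FDR = 0.234). Tcirg1, a V-ATPase subunit of osteoclasts and immune cells, went from 22.2 ± 8.3 to 74.2 ± 50.3 CPM in KPC IL6KO (log2 fold change 1.74, FDR = 0.385).

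Whether muscle and fat responded differently was tested as the difference between their log2 fold changes, over the 12599 genes in both tables. In KPC against no tumor 4 of the 10 genes differed at an FDR of at most 0.05, against 38.6% of all genes. The log2 fold change was larger in quadriceps than in fat by 1.70 for Ctsl (SE 0.50, FDR = 0.0116), by 1.36 for Ctsd (SE 0.40, FDR = 0.0115) and by 1.25 for Cast (SE 0.29, FDR = 0.00252). Ctss went the other way, with a difference of -1.92 (SE 0.71, 95% interval -3.40 to -0.44, FDR = 0.0384), and its call was lost when any 1 of 9 of the 23 libraries was left out (-1.66 to -2.01, FDR of 0.053 to 0.0979). These were no tumor 1 and 3 and KPC 2, 3 and 4 in quadriceps, and no tumor 7 and 8 and KPC 5 and 6 in fat. Ctsk (-1.55, FDR = 0.057) and Cst3 (-0.65, FDR = 0.0587) came close to the threshold. Ctsk passed it by the likelihood ratio test (-1.56, FDR = 0.0398), and Cst3 where at least 10 counts were required in every library (-0.68, FDR = 0.046). Without no tumor fat pad 6 both were called (-1.84 and -0.84), as was Ctsb (-1.30, FDR = 0.00265). Ctsk was also called without KPC 1 in quadriceps or without KPC 8 or KPC IL6KO 6 in fat, Cst3 without KPC 2 in quadriceps or without KPC 8 or KPC IL6KO 5 in fat, and Capn1 without no tumor 5 in fat (-1.17, FDR = 0.048). For Capn3 the difference was 0.01, with a 95% interval from -1.97 to 1.99. In KPC IL6KO against no tumor none of the 10 genes differed between tissues (edgeR quasi-likelihood test, 0% of all genes called), 1 gene, Ctss, had an unadjusted p under 0.05 (0.0387), as 7.96% of all genes did, and the likelihood ratio test called 39 genes. The tissues were extracted and sequenced separately, so that tissue and processing cannot be told apart in this difference.

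Across the 11 quadriceps libraries, several genes had patterns close to those of the set by Pearson r of log2 CPM, a measure that pools the 3 groups and so takes in the differences between them. Ctsl was most like Ccdc9 and Psmb6 (r = 0.997 each) and Apba3 (0.996), and Ctsd most like Eif3g and Psmb3 (0.998 each) and Trmt112 (0.997). Psmb6 and Psmb3 encode proteasome subunits. Capn3 was most like Phkg1 (0.993), Eef2kmt and Tmod4 (0.992 each), and Cast most like Cwf19l2 and Rnf216 (0.994 each) and Xab2 (0.993). Ctss was most like Fcgr3 (0.97), Rab10 (0.946) and C1qb (0.945). Across the 12 fat libraries Ctss was most like Tfec (0.983), Ptx3 (0.978) and Cd300lf (0.977), Ctsd like Trim30a (0.97) and Psap (0.959), and Ctsk like Mmp2 (0.956), Slit3 (0.942) and Adamts1 (0.94). Fcgr3 and C1qb are genes of macrophages and related cells, and Mmp2 is a matrix protease of fibroblasts. Within the set, Ctsl and Ctsd had r = 0.992 in quadriceps, Capn1 and Capn3 0.965, Capn2 and Cast 0.96, and Ctsl and Cst3 -0.974. In fat the highest value within the set was 0.864, for Ctsb and Capn2.

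Several of the 10 genes share exons with another gene in the annotation, and whether the counting used strand is not given in the sources used here. Capn2 shares 1717 of its 6345 exonic bases with an antisense gene, Capn1 394 of 3344, Ctsl 1742 of 6489, Cast 834 of 11470 with Erap1 and Ctsb 774 of 6051 with Fdft1. On the same strand Ctsd shares 808 of 2351 bases, Capn3 386 of 5023 with Ganc, and Ctsl 395 with a pseudogene. Reads from these bases cannot be assigned to one of the genes with certainty.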

How the data were processed

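The authors aligned RNA-seq reads to mm10 with STAR and counted them per gene with featureCounts 1.5.1, per the submitters' processing notes, which also name edgeR 3.12.1. They deposited unnormalised gene counts, 1 table per tissue, with 12831 genes for quadriceps and 16962 for fat, and every column was matched to a sample by its label. A further muscle sample without tumor that the authors removed was not analysed here. The sources differ on the extraction and library kits. Counts were scaled by TMM and fitted with edgeR 4.0.16 in R 4.3.3 (quasi-likelihood test, group means, the 3 groups of a tissue in 1 fit, filterByExpr, which removed no gene). Calls needed a Benjamini-Hochberg FDR of at most 0.05 over all genes of the table and a change of at least 1.5-fold. The difference between tissues was a contrast over all 23 libraries, with the FDR alone. DESeq2 1.42.0, the likelihood ratio test, other scalings and filters, fewer libraries and a replicate block were alternatives. No 2 libraries of the same group and tissue agreed within sampling noise. Levels are CPM on TMM-scaled library sizes. CPM per kb uses the union of exons in GENCODE M21, and E-box and other motifs were read from RefSeq promoters of GRCm38.p6. The fitting was tested on simulated data. Each library is 1 mouse, so p-values measure the spread between mice. Detection floors cover counting error only. The members and gene lists were chosen with earlier results of these data known. All 10 genes are named. Genes named from a list are its most abundant, its called ones with the largest rise and fall, or else its lowest p. From marker lists the names come from the most abundant and the first 3. For likeness they come from the 3 genes of highest Pearson r among genes whose log2 CPM averages 1 or more. Not every gene that meets this rule is named. Mitf against no tumor and Ttn in fat lie outside that rule and were named after their values were seen.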

Additional observations from a re-analysis of the deposited data

Results flagged for a closer look

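The 5 groups of 4 libraries were checked for each of the 10 genes, and in 6 of these 50 cases 1 library stood far from the others, where chance gives about 1 in 20. Ctsl in quadriceps was at 1382 CPM in KPC 3, with 430.1 to 557 CPM in the other KPC libraries, and at 152 CPM in KPC IL6KO 3, with 107 to 110.2 CPM in the other libraries of that group. Ctss in quadriceps was at 11.9 CPM in KPC 1, with 2.43 to 3.87 CPM in the others. In fat, Ctsd was at 1988 CPM in KPC IL6KO 8 (897 to 1041 CPM in the others), and Ctsk at 46.3 CPM in KPC 5 (15.3 to 18.8 CPM) and at 8.71 CPM in KPC IL6KO 6 (19.3 to 21.2 CPM). KPC IL6KO 6 was also the pad of its group with high Gpx5.

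The change in KPC against no tumor differed between quadriceps and fat for 4 of the 10 genes by the test of the difference itself, a share near the 38.6% of all genes. On the log2 scale it was larger in quadriceps by 1.70 for Ctsl, by 1.36 for Ctsd and by 1.25 for Cast, and the difference was -1.92 for Ctss, which lost its call without any 1 of 9 of the 23 libraries (FDR of 0.053 to 0.0979).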

How the results depend on the processing

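The 6 calls in quadriceps of KPC, against either group, were made under all 10 alternatives, and upper quartile scaling added 2 in KPC against no tumor. Without 1 library at a time the set had 5 to 7 calls against no tumor and 6 to 7 against KPC IL6KO, and in the difference between tissues 3 to 7 (7 without no tumor fat pad 6). In fat 1 gene, Ctss, was called in KPC against no tumor by DESeq2, by the likelihood ratio test, with the compared groups alone and in the high-Gpx5 pads, the last of these chosen after seeing the data, and 1, Ctss again, in KPC IL6KO against no tumor by DESeq2 and the likelihood ratio test. Counts over all genes that were 0 in the quasi-likelihood test were 96 and 95 by DESeq2 and likelihood ratio in quadriceps of KPC IL6KO against no tumor. In fat they were 585 and 413 (KPC; 689 with the epididymal covariate, 393 in high-Gpx5 pads, 174 with the compared groups alone and 16 in the newer quasi-likelihood fit), 286 and 209 (KPC IL6KO) and 125 and 66 (between tumor groups, 1 in the newer fit). The likelihood ratio test gave 39 for the difference between tissues in KPC IL6KO. Without fat pad KPC IL6KO 6 the quasi-likelihood counts were 15 (fat, KPC), 13 (fat, KPC IL6KO) and 112 (difference between tissues in KPC IL6KO). That difference gave 1 gene without quadriceps KPC 1. Fat of KPC gave 1 without KPC 8, and quadriceps of KPC IL6KO 2 without KPC IL6KO 1. Same-numbered mice were not treated as pairs in the main fit. Of such pairs, 2 of 10 in quadriceps and 7 of 12 in fat had a correlation over 0.1. The values ran from -0.155 to 0.265 and from -0.539 to 0.65, which does not settle whether the numbers pair the mice. A fit with the replicate block called 6, 0 and 6 of the set in quadriceps and 0 in fat, with 7043 genes in all against 7147 in KPC against no tumor. Of 20 log2 fold changes that reversed under an alternative other than leaving out a library, 0 passed the FDR, and the cause was not tested. In quadriceps these were Ctss in KPC against no tumor (-0.22 with upper quartile scaling, -0.0030 with the block), Cast in KPC IL6KO (0.0079 by DESeq2, 0.0073 with RLE scaling) and Ctsk in KPC against KPC IL6KO (-0.33 with upper quartile scaling, -0.014 with at least 10 counts in every library, -0.026 with the compared groups alone, -0.12 with the block). In fat they were Cast 0.22 and Cst3 0.14 in KPC (high-Gpx5 pads), Capn1 0.24 in KPC IL6KO with the covariate and 0.26 in low-Gpx5 pads, where Cst3 was -0.15, and between tumor groups Capn3 0.016 with the block and, with the covariate, Ctsb 0.58, Ctsd 0.22, Capn1 -0.60, Capn2 0.069 and Cast 0.18. The difference between tissues for Capn3 was -0.019 with at least 10 counts in every library. Leaving out 1 library reversed 26 log2 fold changes, given here as ranges. In quadriceps Ctss ran from -0.58 to 0.40 in KPC, and Ctsl from -0.051 to 0.14, Capn1 from -0.038 to 0.083 and Cast from -0.067 to 0.052 in KPC IL6KO. Against KPC IL6KO, Ctss ran from -0.85 to 0.11 and Ctsk from -0.55 to 0.24. In fat of KPC, Capn1 ran from -0.33 to 0.25, Capn2 from -0.11 to 0.49 and Cst3 from -0.20 to 0.10. In fat of KPC IL6KO, Ctsd ran from -0.039 to 0.53, Capn1 from -0.58 to 0.14, Cast from -0.25 to 0.17 and Cst3 from -0.044 to 0.23. Between tumor groups in fat, Ctsb ran from -0.28 to 0.062, Ctsd from -0.27 to 0.24, Ctss from -0.22 to 0.80, Ctsk from -0.044 to 0.65, Capn1 from -0.039 to 0.46 and Capn3 from -0.85 to 0.60. The difference between tissues ran in KPC from -0.19 to 0.40 for Capn2 and from -0.28 to 0.35 for Capn3, and in KPC IL6KO from -0.32 to 0.081 for Ctsl, -0.29 to 0.26 for Ctsd, -0.044 to 0.61 for Capn1, -0.13 to 0.27 for Cast and -0.040 to 0.22 for Cst3. Of these values only Ctss in KPC against KPC IL6KO, at -0.85 without KPC 1, was called (FDR = 0.0177). Counts of the 10 genes were at least 111 in quadriceps and 32 in fat, above the floor of 3 counts.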

Other observations

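Cst11, a cystatin of the epididymis, was the most abundant of the other cystatins in fat. It ran from 0.208 to 3267 CPM with no tumor, from 883 to 1721 CPM in KPC pads and from 0.327 to 2872 CPM in KPC IL6KO pads, and its log2 fold change in KPC was -0.22 ± 2.53 SE. Of the 33 other lysosomal hydrolases in quadriceps, 7 were called higher and 10 lower in KPC against KPC IL6KO. Over all genes the shares were 26.4% and 27.3%. Naglu had the largest called rise of the list and Sgsh the largest called fall, and they are named for that reason. Both degrade mucopolysaccharides. Naglu averaged 24.6 ± 6.5 CPM under KPC tumors against 7.04 ± 0.51 CPM under KPC IL6KO tumors (mean ± SD of 4 mice each), with a log2 fold change of 1.80 (edgeR quasi-likelihood test, FDR = 7.95e-06), and Sgsh averaged 1.88 ± 0.60 against 7.16 ± 0.94 CPM, a log2 fold change of -1.93 (FDR = 1.51e-05).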
